A study of Homo sapiens with 18 samples.

Results

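The comparison described here set 3 arrays of ECV304 cells exposed to IL-1β plus aminaphtone for 3 h against 3 arrays of the same treatment at 1 h, 6 of the 18 arrays of the series. The arrays were chosen by their labelled treatment and time. ECV304 is an established human cell line deposited as endothelial and described as having both endothelial and epithelial characteristics. It is also known to share its DNA profile with a bladder carcinoma line. The cells were grown to confluence and held in 1% serum for 24 h. They then received recombinant interleukin-1β (IL-1β) at 100 IU/ml together with aminaphtone at 6 µg/ml. Aminaphtone is a naphthohydroquinone derivative used for capillary disorders. The series also holds 3 arrays each of IL-1β with medium in place of aminaphtone at 3 h and 1 h, and 3 arrays of each treatment at 6 h. Total RNA was hybridised to Affymetrix arrays of the Human Gene 1.0 ST type, which report 1 log2 signal per transcript cluster, a set of probes for 1 gene. Every group received IL-1β and none was sampled before its addition, so a difference between 3 h and 1 h describes time since IL-1β and aminaphtone were added. Effects of IL-1β, aminaphtone, the change of medium and time in low serum cannot be told apart within it.

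IL-1β binds its receptor at the cell surface and signals through MYD88 and IRAK kinases to MAP kinases and to the IκB kinase. The MAP kinase branch switches on immediate early genes, which need no new protein synthesis and whose short-lived mRNAs decline quickly. The NF-κB branch frees transcription factors that induce chemokines, cytokines and adhesion molecules, together with their own inhibitors. Between 1 and 3 h the mRNAs of early transcription factors therefore usually decline, while transcripts of the NF-κB branch can still rise. Some genes of that branch, such as NFKBIA and CXCL8, already had high signals at 1 h here.

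The 3 arrays at 3 h correlated with each other at 0.975 to 0.992 across transcript clusters and the 3 at 1 h at 0.989 to 0.992. The 1 h arrays with IL-1β alone, which enter the shared estimate of spread, correlated at 0.889 to 0.963. Of 12 urothelial and epithelial markers, all 12 lay above the filter on low signal (mean log2 above 6.193), with KRT8 at 12.44, KRT18 at 11.78 and KRT7 at 11.42 over the 6 arrays and the other 9 between 6.39 and 7.67. Of 12 endothelial markers, 6 lay above it, ESAM (8.67) and CLDN5 (7.62) highest, while PECAM1 (5.28), VWF (5.95), KDR (5.36), TEK, ERG and EMCN did not. None of the epithelial markers passed the test between 3 h and 1 h, and of the endothelial markers CDH5, a junction cadherin, rose by 0.44 on the log2 scale (adjusted p = 0.0293). Of 7 leukocyte markers measured, 3 lay above the filter, with CD68 highest at 8.6, and PTPRC, the pan-leukocyte marker, stood at 3.62. The RNA comes from whole cultures, so fewer cells of a kind and less RNA per cell cannot be told apart.

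At 3 h against 1 h, 1665 of 15796 transcript clusters tested passed an adjusted p of 0.05 in limma, 10.5%, with 804 higher (5.09%) and 861 lower (5.45%). A change of at least 2-fold was seen for 390 of them (2.47%), 164 higher (1.04%) and 226 lower (1.43%). Taking 1 transcript cluster per gene, 720 of 13805 genes rose (5.22%) and 792 fell (5.74%), and the median difference of all genes was 0.02 on the log2 scale. These shares are the background for every count of list members below. The 3 arrays at 3 h lay wholly above the 3 at 1 h for 15.9% of genes and wholly below them for 17%. The total number of calls moved with single arrays. It was 790 without the first 1 h array with aminaphtone, 830 without the first 3 h array and 1056 without the second 1 h array. It was 2633 and 2641 without the first or the second 1 h array with IL-1β alone, which is in neither group compared. Counts of 1 or 2 members of a list also moved easily, 20 of 25 by over 1.5 times without some single array. The count of changes of at least 2-fold moved by less than 1.5 times under every alternative run. Each log2 difference below is the mean at 3 h minus the mean at 1 h of the arrays with aminaphtone, with limma's standard error (SE), n = 3 per group and p adjusted over all transcript clusters tested. The study's design calls the 3 replicates of a time independent without saying what was repeated, so p-values reflect how these arrays vary, which may be technical in part.

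The largest falls were in immediate early genes. Of 29 listed immediate early transcription factors 27 passed the filter. Of these 19 fell (70.4%) and 1 rose, with a median difference of -0.81, beside 5.74% and 5.22% of all genes. NR4A1, an orphan nuclear receptor induced within minutes by growth factors and cytokines, had log2 signals of 8.21, 8.73 and 7.95 at 3 h, against 12.04, 12.08 and 12.19 at 1 h. All 3 arrays at 3 h lay more than 3 log2 units under those at 1 h, and the fall was 14-fold (log2 difference -3.81, SE 0.195, adjusted p = 4.3e-09). Its relatives fell too. NR4A2 read 7.62, 7.10 and 7.25 at 3 h, against 10.33, 10.33 and 10.63 at 1 h, a fall of 8.6-fold (log2 -3.10, SE 0.185, adjusted p = 3.21e-08). NR4A3 read 7.88, 9.46 and 7.72 at 3 h, against 11.30, 11.25 and 10.96 at 1 h (log2 -2.82, SE 0.389, adjusted p = 0.00016). For NR4A3 the second array at 3 h stood above the other two, without reaching the 1 h arrays.

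FOS, the AP-1 subunit whose mRNA is among the shortest-lived in the cell, read 7.73, 8.0 and 7.50 at 3 h, against 10.93, 10.98 and 10.72 at 1 h. The groups were far apart and the arrays within each close together, for a fall of 8.75-fold (log2 -3.13, SE 0.146, adjusted p = 1.97e-09). FOSB, a second FOS protein, read 8.73, 10.07 and 8.54 at 3 h, against 11.85, 12.03 and 12.08 at 1 h (log2 -2.87, SE 0.326, adjusted p = 2.6e-05). The zinc finger factors of the EGR family followed the same course. EGR1 read 10.15, 11.41 and 10.04 at 3 h, against 13.18, 13.16 and 13.11 at 1 h, a fall of 6.12-fold (log2 -2.61, SE 0.343, adjusted p = 9.83e-05). EGR3 read 7.67, 9.39 and 7.74 at 3 h, against 10.99, 11.13 and 11.25 at 1 h (log2 -2.86, SE 0.397, adjusted p = 0.000166). In FOSB, EGR1 and EGR3, as in NR4A3, the second array at 3 h was the highest of its group by more than 1 log2 unit, and in each it still lay under every array at 1 h. EGR4 fell by 2.27 and KLF10, a TGF-β-inducible repressor, by 1.78 on the log2 scale. KLF10 read 10.16, 9.97 and 10.08 at 3 h, against 11.97, 11.80 and 11.79 at 1 h.

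KLF4, a Krüppel-like factor, was the 1 member that rose, and it is named here after its values were seen. It read 8.85, 9.13 and 8.87 at 3 h, against 7.63, 7.56 and 8.03 at 1 h (log2 1.21, SE 0.208, adjusted p = 0.00114). The mean over the 27 members was 9.39, 9.81 and 9.23 at 3 h, against 10.67, 10.71 and 10.79 at 1 h. The number of members that fell was within 1.5 times of 19 under every alternative run.

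**Figure D1:**
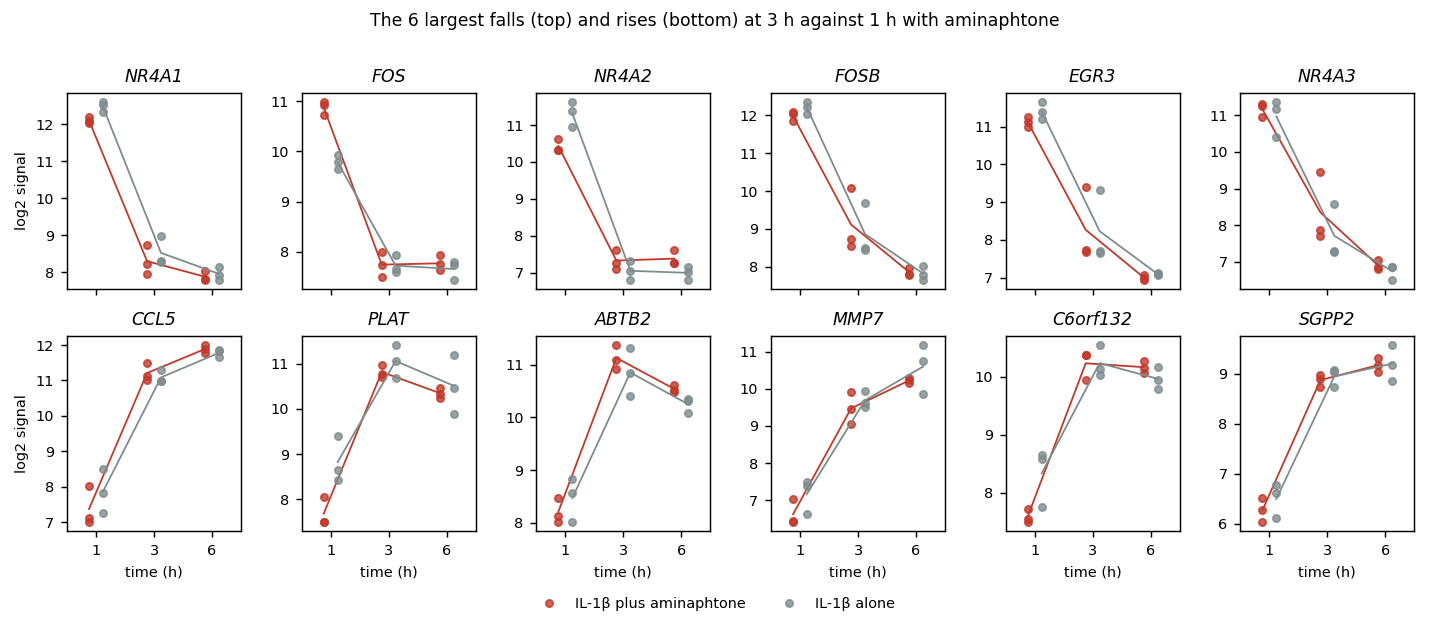
The log2 signal of the 6 genes with the largest falls (top row) and the 6 with the largest rises (bottom row) is plotted against time in h. Each point is 1 array, lines join group means, and colours mark IL-1β plus aminaphtone and IL-1β alone. The genes were chosen among those whose groups with aminaphtone did not overlap, so the gap between 3 h and 1 h follows from the choice; 32.9% of all genes had such a gap.

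The promoter of EGR1 is shown because it is the one promoter among the named immediate early genes that held the element best known for serum and MAP kinase induction, the CArG box bound by serum response factor. The sequence is RefSeq's on GRCh38.p14, 250 bases before to 50 after the gene's start, on the plus strand at chr5:138465229-138465528. Capitals mark 2 CArG boxes, at 105 to 96 and at 83 to 74 bases before the start.
EGR1: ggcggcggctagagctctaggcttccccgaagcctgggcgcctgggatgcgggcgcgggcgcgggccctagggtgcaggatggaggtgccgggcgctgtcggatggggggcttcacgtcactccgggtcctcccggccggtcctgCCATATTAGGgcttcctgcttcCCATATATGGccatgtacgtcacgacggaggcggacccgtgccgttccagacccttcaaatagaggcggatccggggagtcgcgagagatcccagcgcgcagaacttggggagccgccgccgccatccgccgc
Of the 19 immediate early genes that fell, 14 had an entry among these windows. A CArG box was found in 1 of the 14, in 1.29% of all 27305 promoters and in 1.1% of the promoters of genes tested. The cyclic AMP response element TGACGTCA was found in 1 of the 14, MAFF. Its share was 1.98% of all promoters and 3.06% of those of genes tested. The AP-1 site TGANTCA was found in none of the 14, in 7.76% of all promoters and in 4.61% of those of genes tested. Both strands were searched and overlapping matches were counted. A match is a description of the sequence, and the absence of one says only that these letters are not in the window.

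Of 14 tested feedback inhibitors of the MAP kinases 3 fell (21.4%) and 1 rose (7.14%), beside 5.74% and 5.22% of all genes. The share that rose was thus near that of all genes, and the median difference was -0.03. DUSP6, a phosphatase of ERK, read 8.30, 8.96 and 8.50 at 3 h, against 9.96, 10.05 and 9.73 at 1 h (log2 -1.33, SE 0.199, adjusted p = 0.000351). DUSP1, which acts on p38, JNK and ERK, fell by 0.86, and SPRY2, an inhibitor of receptor tyrosine kinase signalling, by 0.50. DUSP10, a phosphatase of JNK and p38, rose instead, with 9.04, 9.01 and 9.04 at 3 h, against 7.73, 7.64 and 8.27 at 1 h (log2 1.15, SE 0.198, adjusted p = 0.00118).

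Transcriptional repressors were divided, with 7 of 16 lower (43.8%) and 5 higher (31.2%). HES1, the basic helix-loop-helix repressor downstream of Notch, read 8.42, 7.97 and 8.43 at 3 h, against 10.52, 10.32 and 10.55 at 1 h, a fall of 4.56-fold (log2 -2.19, SE 0.162, adjusted p = 2.81e-07). ID2, an inhibitor of helix-loop-helix factors, read 8.89, 8.84 and 8.85 at 3 h, against 10.59, 10.28 and 10.29 at 1 h (log2 -1.53, SE 0.13, adjusted p = 1.19e-06). BCL6, a zinc finger repressor, fell by 1.03 (adjusted p = 0.000272). In the other direction RUNX1 rose by 0.77 (adjusted p = 4.49e-05) and IRF2BP2, an interferon regulatory factor 2 co-repressor, by 0.81 (adjusted p = 0.000493). The count of 5 higher became 2 without the first or the second array at either 3 h or 1 h with aminaphtone.

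Of 18 listed chemokine genes 13 passed the filter, and 8 of them rose (61.5%), 5 did not pass the test and none fell, with a median difference of 0.94. The largest rise of any gene was in CCL5 (RANTES), which attracts T cells and monocytes. CCL5 read 11.50, 11.12 and 11.01 at 3 h, against 7.11, 6.99 and 8.01 at 1 h. The 3 arrays at 3 h lay about 3 or more log2 units above the highest at 1 h, for a rise of 14.3-fold (log2 3.84, SE 0.264, adjusted p = 2.31e-07). CCL2 (MCP-1), the main monocyte chemokine, read 12.73, 12.84 and 12.77 at 3 h, against 11.04, 10.95 and 11.47 at 1 h (3.08-fold, log2 1.62, SE 0.169, adjusted p = 1.01e-05). CXCL6, a neutrophil chemokine, read 7.84, 7.77 and 7.79 at 3 h, against 6.36, 6.15 and 6.45 at 1 h (2.79-fold, log2 1.48, SE 0.162, adjusted p = 1.66e-05). The 1 h arrays of CXCL6 lay close to the filter value, so the size of its rise is uncertain.

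CXCL16, a membrane-bound chemokine, rose by 1.20, CCL20, the ligand of CCR6, by 1.00, and CXCL1, a neutrophil chemokine, by 0.94. CXCL8 (IL-8) read 12.51, 12.79 and 12.79 at 3 h, against 12.16, 12.09 and 12.24 at 1 h, a smaller difference of 0.53 (SE 0.134, adjusted p = 0.0162). It no longer passed without the first or second array at 1 h (adjusted p = 0.0628 and 0.0662) or the second or the third at 3 h (adjusted p = 0.0686 and 0.056). CCL22, a ligand of CCR4, had a difference of 0.44 that did not pass (SE 0.184, adjusted p = 0.158), although its arrays at 3 h, 7.33, 7.45 and 7.03, lay above those at 1 h, 6.74, 6.82 and 6.93. The mean of the 13 chemokines was 9.99, 10.07 and 9.85 at 3 h, against 8.84, 8.85 and 9.18 at 1 h.

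Among 13 tested cytokines and growth factors of inflammation, 6 rose and none fell, with a median difference of 0.47. IL1B, the gene of IL-1β itself, read 8.08, 8.41 and 7.98 at 3 h, against 5.84, 6.02 and 6.03 at 1 h, a log2 difference of 2.19 (SE 0.258, adjusted p = 3.69e-05). It was under the filter value of 6.193 on all 3 arrays at 1 h and passed the filter through the groups where it is higher, so its difference was favoured by the filter and its size is uncertain. CSF1, the macrophage colony-stimulating factor, read 10.60, 11.06 and 10.26 at 3 h, against 7.93, 7.90 and 8.65 at 1 h (5.6-fold, log2 2.48, SE 0.319, adjusted p = 7.7e-05). EBI3, a subunit of IL-27 and IL-35, rose by 1.22 (adjusted p = 0.000449), and CSF3, the granulocyte colony-stimulating factor, by 0.81 (adjusted p = 0.00242). IL6 read 12.57, 12.77 and 12.54 at 3 h, against 12.09, 12.07 and 12.49 at 1 h. Its groups did not overlap, but the difference of 0.41 did not pass (SE 0.142, adjusted p = 0.0803).

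**Figure D2:**
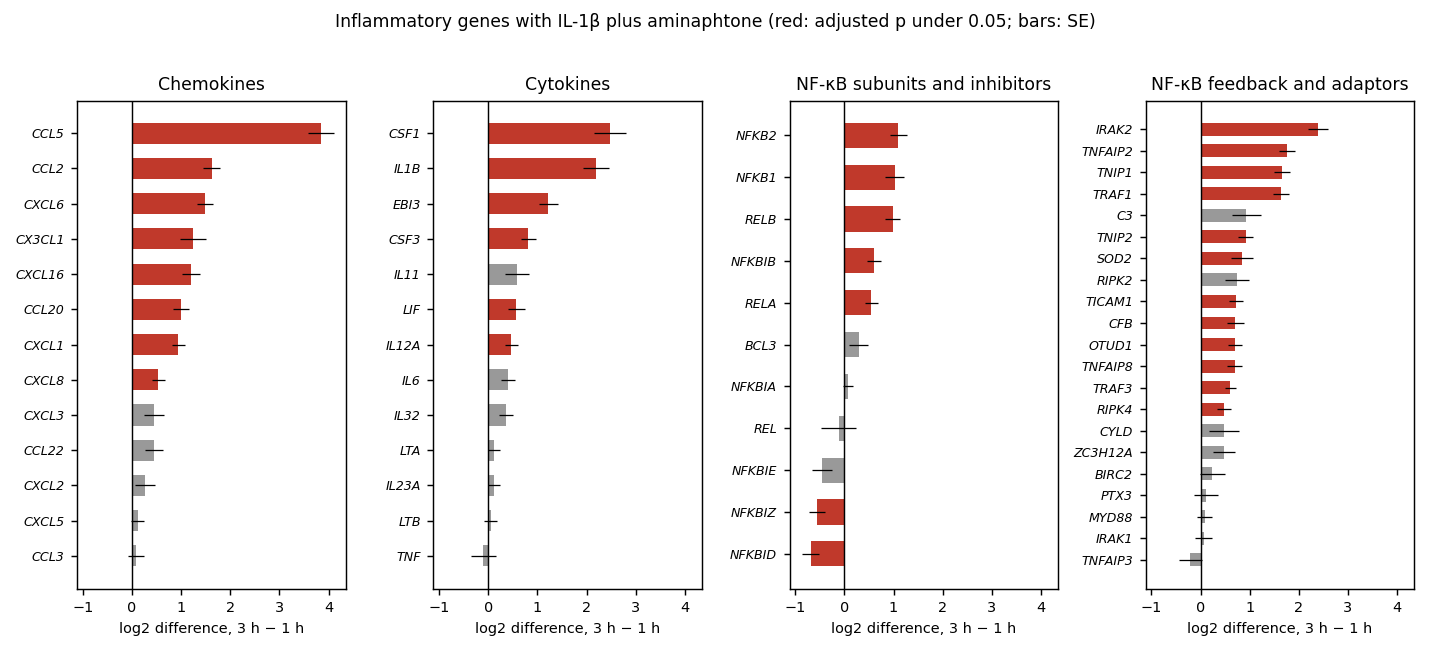
Bars give the log2 difference between 3 h and 1 h with IL-1β plus aminaphtone for each tested member of 4 groups of inflammatory genes, with limma's standard error as a line. Red bars passed an adjusted p of 0.05 and grey bars did not; CCL5 at 3.84 is the longest bar, and no chemokine or cytokine bar below 0 is red.

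Of the 11 genes of NF-κB subunits and inhibitors 5 rose, 2 fell and 4 did not pass. The 5 became 3 without the first array at 3 h. The 2 became 0 without the first or the third array at 3 h or the third at 1 h with aminaphtone, and 1 without the first or the second at 1 h. NFKB2, the precursor of p52, read 11.15, 11.26 and 10.84 at 3 h, against 9.90, 9.84 and 10.21 at 1 h (log2 1.10, SE 0.167, adjusted p = 0.000369). NFKB1, the precursor of p50, read 11.17, 11.15 and 10.88 at 3 h, against 10.02, 9.82 and 10.30 at 1 h (log2 1.02, SE 0.201, adjusted p = 0.00332). RELB, the partner of p52, rose by 0.98 (adjusted p = 0.000759). NFKBIB (IκBβ) had a difference of 0.60 (adjusted p = 0.0107; 0.0677 without the first array at 3 h). The falls were in the nuclear IκB proteins NFKBID, at -0.69 (adjusted p = 0.018), and NFKBIZ, at -0.56 (adjusted p = 0.0304), and NFKBIZ is named after its values were seen. NFKBIA, the gene of IκBα, read 13.33, 13.44 and 13.29 at 3 h, against 13.22, 13.28 and 13.35 at 1 h (log2 0.07, SE 0.101, adjusted p = 0.787). TNFAIP3, the gene of the deubiquitinase A20, had a difference of -0.21 (SE 0.234, adjusted p = 0.686). In both of these inhibitors the arrays of the groups overlapped.

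Of 21 tested feedback genes and adaptors 12 rose, 9 did not pass and none fell, with a median difference of 0.70. IRAK2, a kinase of the IL-1 receptor complex that sustains the late response, read 10.58, 10.28 and 10.37 at 3 h, against 7.73, 7.89 and 8.44 at 1 h, a rise of 5.24-fold (log2 2.39, SE 0.205, adjusted p = 1.27e-06). TNFAIP2 read 12.62, 12.67 and 12.62 at 3 h, against 10.56, 10.81 and 11.28 at 1 h (log2 1.76, SE 0.168, adjusted p = 4.11e-06). TNIP1, an A20-binding inhibitor of NF-κB, read 10.32, 10.08 and 9.90 at 3 h, against 8.37, 8.33 and 8.62 at 1 h (log2 1.66, SE 0.162, adjusted p = 4.83e-06). TRAF1, a TNF receptor adaptor, rose by 1.64, TNIP2 by 0.92 and TRAF3 by 0.60.

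The promoters of CXCL6 and NFKB1 are shown because these were the genes with the largest rises among the named chemokine and NF-κB genes whose RefSeq window held an NF-κB motif. Both windows are on GRCh38.p14 and the plus strand, CXCL6 at chr4:73836428-73836727 and NFKB1 at chr4:102501109-102501408, and capitals mark the motif. In CXCL6 a pair of overlapping matches covers 90 to 80 bases before the start, and in NFKB1 a single match covers 49 to 40 bases before it.
CXCL6: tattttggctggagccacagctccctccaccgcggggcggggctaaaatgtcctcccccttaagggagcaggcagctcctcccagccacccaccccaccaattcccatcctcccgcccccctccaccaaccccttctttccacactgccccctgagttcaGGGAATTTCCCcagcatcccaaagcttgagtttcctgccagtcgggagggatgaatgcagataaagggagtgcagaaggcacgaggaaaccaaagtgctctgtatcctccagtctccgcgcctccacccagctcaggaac
NFKB1: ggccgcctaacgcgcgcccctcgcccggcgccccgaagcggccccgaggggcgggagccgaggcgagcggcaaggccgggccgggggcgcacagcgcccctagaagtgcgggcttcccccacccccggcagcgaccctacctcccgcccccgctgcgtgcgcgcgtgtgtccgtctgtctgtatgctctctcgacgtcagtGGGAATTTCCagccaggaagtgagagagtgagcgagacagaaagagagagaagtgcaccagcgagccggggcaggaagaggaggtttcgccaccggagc
Of the 25 chemokine and NF-κB genes that rose, 19 had a window, and 7 of the 19 (36.8%) held the NF-κB motif, searched on both strands. It was found in 10.8% of all promoters and in 13.4% of the promoters of genes tested. The AP-1 site was found in 1 of the 19, and neither the CArG box nor the cyclic AMP response element in any. Members of the same lists that did not rise were not counted, so whether the NF-κB motif goes with the rise was not tested.

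Members of the TNF superfamily showed opposite changes. Of 15 tested, 7 rose and 2 fell, with a median difference of 0.69. TNFSF10, the death ligand TRAIL, read 5.52, 6.07 and 5.91 at 3 h, all under the filter value, against 8.34, 7.93 and 8.59 at 1 h (log2 -2.45, SE 0.426, adjusted p = 0.00121). It passed the filter through the 1 h arrays, so its fall was favoured by the filter and the size of that fall is uncertain. A receptor of TRAIL, TNFRSF10A, rose, with 8.87, 8.77 and 8.54 at 3 h, against 7.75, 7.45 and 7.85 at 1 h (log2 1.04, SE 0.13, adjusted p = 6.14e-05). TNFRSF10B, its other death receptor, rose by 0.76 (adjusted p = 0.0057). TNFRSF11B, the decoy receptor osteoprotegerin, read 9.52, 8.95 and 9.93 at 3 h, against 7.67, 7.42 and 7.81 at 1 h (log2 1.83, SE 0.287, adjusted p = 0.000495). The co-stimulatory receptors TNFRSF9 (4-1BB) and CD40 rose by 1.54 and 1.30. TNFSF18, the ligand of GITR, read 6.94, 7.30 and 7.38 at 3 h, against 6.46, 6.33 and 6.75 at 1 h, a difference of 0.69 that did not pass (SE 0.316, adjusted p = 0.202).

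Of 19 tested adhesion molecules and integrins 5 rose and none fell, with a median difference of 0.34. ICAM1, the leukocyte ligand of endothelial and epithelial cells, read 13.23, 13.32 and 13.17 at 3 h, against 12.15, 12.28 and 12.63 at 1 h (1.85-fold, log2 0.89, SE 0.121, adjusted p = 0.000141). SELE (E-selectin) read 7.59, 6.86 and 7.77 at 3 h, against 6.30, 6.32 and 6.2 at 1 h, close to the filter value (log2 1.13, SE 0.173, adjusted p = 0.000392). CD44, the hyaluronan receptor, rose by 1.42 and ITGA5, a fibronectin receptor subunit, by 1.45. VCAM1 lay under the filter, at a mean of 5.65 over the 6 arrays, and was not tested. The count of 5 became 4 without any 1 of the 6 arrays compared, and 8 without the first 1 h array with IL-1β alone. Of 16 interferon-related genes 2 rose (12.5%), beside 5.22% of all genes. Among them TAP1, the peptide transporter of antigen presentation, rose by 1.14 (adjusted p = 6.14e-05). In the SOCS and STAT3 group 2 of 17 rose (11.8%), among them STAT5A by 1.22 (adjusted p = 6.68e-05). SOCS3 had a difference of 0.64 that did not pass (adjusted p = 0.0508).

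The second largest rise of any gene was in the plasminogen activation system. PLAT, the gene of tissue plasminogen activator, read 10.77, 10.97 and 10.71 at 3 h, against 7.49, 7.50 and 8.06 at 1 h, a rise of 8.78-fold (log2 3.13, SE 0.288, adjusted p = 2.81e-06). SERPINE2, an inhibitor of thrombin and plasminogen activators, read 11.62, 11.37 and 11.74 at 3 h, against 9.07, 8.90 and 9.52 at 1 h (5.34-fold, log2 2.42, SE 0.204, adjusted p = 1.18e-06). PLAU, the gene of urokinase, rose by 0.97 (adjusted p = 0.000591), and PLAUR, its receptor, by 1.12 (adjusted p = 0.00191). ADM, the gene of the vasodilator adrenomedullin, fell, with 8.67, 8.76 and 8.28 at 3 h, against 10.28, 10.03 and 9.95 at 1 h (log2 -1.52, SE 0.192, adjusted p = 6.68e-05). EDN1, which encodes the constrictor peptide endothelin-1, read 9.80, 9.69 and 9.29 at 3 h, against 9.26, 9.19 and 9.52 at 1 h, and the overlapping groups differed by 0.27 (SE 0.178, adjusted p = 0.437). In all, 7 of 21 tested genes of haemostasis and vasoactive function rose and 2 fell. The 7 became 4 without the first or the second array at either 3 h or 1 h with aminaphtone.

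Of 13 tested matrix metalloproteinase and inhibitor genes 4 rose, 1 fell and 8 did not pass. MMP7 (matrilysin) read 9.45, 9.05 and 9.92 at 3 h, against 6.40, 6.43 and 7.03 at 1 h, a rise of 7.25-fold (log2 2.86, SE 0.299, adjusted p = 1.06e-05). MMP10 (stromelysin-2) rose by 1.35 and MMP1 (interstitial collagenase) by 1.33, but both genes were under 6.193 on every array at 1 h and passed the filter through later arrays, so their counts and sizes carry little weight. TIMP1, an inhibitor of these enzymes, rose by 0.56, and ADAMTS1, a proteoglycan-cleaving protease, fell by 1.14.

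Growth factor genes changed in both directions. HBEGF, a ligand of the EGF receptor, read 11.69, 12.17 and 11.53 at 3 h, against 10.14, 10.30 and 10.59 at 1 h (2.73-fold, log2 1.45, SE 0.195, adjusted p = 0.000124). GDF15, a stress-induced member of the TGF-β superfamily, read 10.90, 11.20 and 10.43 at 3 h, against 12.93, 12.82 and 12.76 at 1 h, a fall of 3.98-fold (log2 -1.99, SE 0.23, adjusted p = 3.06e-05). The ubiquitin ligases SMURF1 and SMURF2, which mark SMADs and TGF-β receptors for degradation, rose by 1.13 (adjusted p = 5.04e-06) and 1.15 (adjusted p = 0.00241), and BMP2 by 0.57. TGFBR3 (betaglycan), a co-receptor of TGF-β, fell by 0.90. Of 17 tested EGF family and angiogenic genes 2 rose and 2 fell, and the 2 rises were 1 without any single array of the series other than the first or the second 1 h array with IL-1β alone. In the TGF-β and BMP group 6 of 20 rose and 1 fell, and the 6 became 3 without the first array at 3 h or at 1 h with aminaphtone.

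S100A3, a calcium-binding protein, read 8.27, 8.29 and 7.82 at 3 h, against 7.07, 6.65 and 7.25 at 1 h (log2 1.14, SE 0.194, adjusted p = 0.00105). PTGER4, a prostaglandin E2 receptor, fell by 0.95 (adjusted p = 0.00207). In this group of prostaglandin and S100 genes 4 of 11 rose and 2 fell, and the 4 became 1 without the first or the second array at 1 h with aminaphtone and 2 without the first at 3 h. Several of the largest rises lay outside these groups. ABTB2 read 11.09, 11.38 and 10.92 at 3 h, against 8.14, 8.02 and 8.48 at 1 h (7.56-fold, log2 2.92, SE 0.217, adjusted p = 2.81e-07). SGPP2, a phosphatase of sphingosine 1-phosphate, read 8.98, 8.90 and 8.74 at 3 h, against 6.27, 6.03 and 6.51 at 1 h (6.08-fold, adjusted p = 2.81e-07). The 1 h arrays of SGPP2 lay close to the filter value, so the size of its rise is uncertain. C6orf132 rose by 2.64, NAV3, a neuron navigator protein, by 2.38, SLC12A7, a potassium-chloride cotransporter, by 2.28, DNMBP, a Cdc42 exchange factor, by 2.23, YPEL2 by 2.20 and B3GNT5, a glycolipid-synthesizing enzyme, by 2.07. Among the largest falls outside the groups, FIGN fell by 2.07, KAT6B, a histone acetyltransferase, by 1.92, and PARD6B, a polarity protein, by 1.87.

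**Figure D3:**
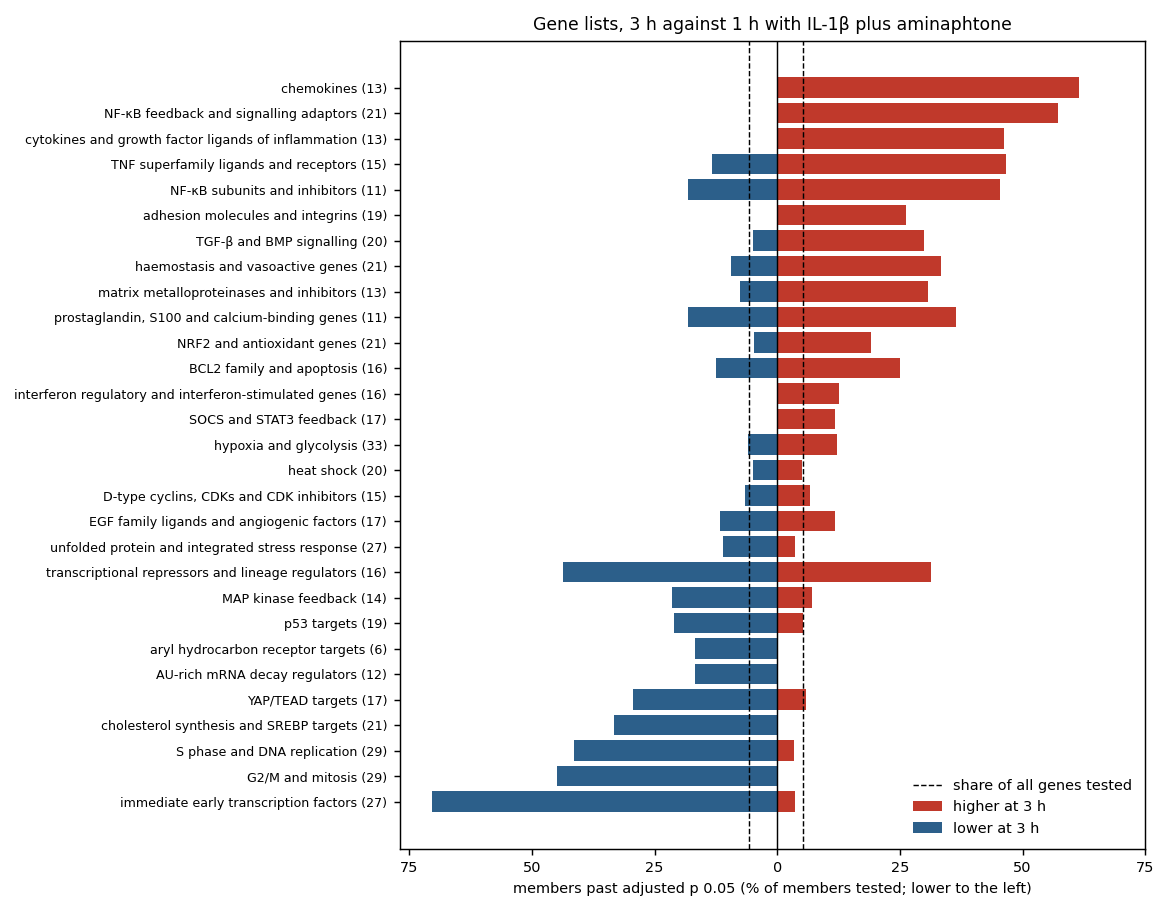
Bars give the percentage of tested members of each gene list that passed an adjusted p of 0.05 at 3 h against 1 h with IL-1β plus aminaphtone, higher to the right and lower to the left, with the number tested in parentheses. Dashed lines mark the share among all genes tested, 5.22% higher and 5.74% lower; immediate early transcription factors reach furthest to the left and chemokines furthest to the right.

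Genes of cell division were lower at 3 h. Of 29 tested genes of G2/M and mitosis 13 fell (44.8%) and none rose, with a median difference of -0.68, and 28 of the 29 differences were below 0. The mean signal of the 29 was 9.35, 9.23 and 9.27 at 3 h, against 10.16, 9.95 and 9.92 at 1 h. CDC25C, the phosphatase that activates CDK1 for mitosis, read 7.27, 7.53 and 6.91 at 3 h, against 8.81, 8.70 and 8.70 at 1 h (2.83-fold lower, log2 -1.50, SE 0.186, adjusted p = 5.72e-05). The other named members were spindle checkpoint and mitotic genes. BUB1B, a checkpoint kinase, read 8.09, 8.18 and 8.47 at 3 h, against 9.79, 9.61 and 9.23 at 1 h (log2 -1.29, SE 0.287, adjusted p = 0.00746). TTK fell by 1.24, HMMR by 1.20, NEK2 by 1.01 and CCNB2, a B-type cyclin, by 0.75. Without the first array at 3 h or the first at 1 h with aminaphtone, 7 of the 29 fell.

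In S phase and DNA replication 12 of 29 fell (41.4%) and 1 rose, with a median difference of -0.49. The mean signal of these 29 was 9.36, 9.36 and 9.27 at 3 h, against 9.95, 9.83 and 9.77 at 1 h, so the arrays of the groups were apart. RFC4, a subunit of the clamp loader, read 9.38, 9.76 and 9.38 at 3 h, against 10.89, 10.76 and 10.61 at 1 h (2.37-fold lower, log2 -1.25, SE 0.154, adjusted p = 5.57e-05). GINS1, a part of the replicative helicase, fell by 0.80 (adjusted p = 0.00195). The count of 12 moved with each array compared. Leaving out the first, the second or the third array at 3 h gave 3, 7 and 7, and leaving out the first, the second or the third at 1 h with aminaphtone gave 2, 4 and 5. Leaving out the first or second 1 h array with IL-1β alone gave 19 and 21, and leaving out all 3 of those gave 22. The sign of the difference was negative for 28 of the 29 genes. Of 15 D-type cyclins, cyclin-dependent kinases and their inhibitors 1 rose and 1 fell, 6.67% each and near the shares of all genes. Both counts were 0 with a trended robust variance and without any single 1 h array with aminaphtone.

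**Figure D4:**
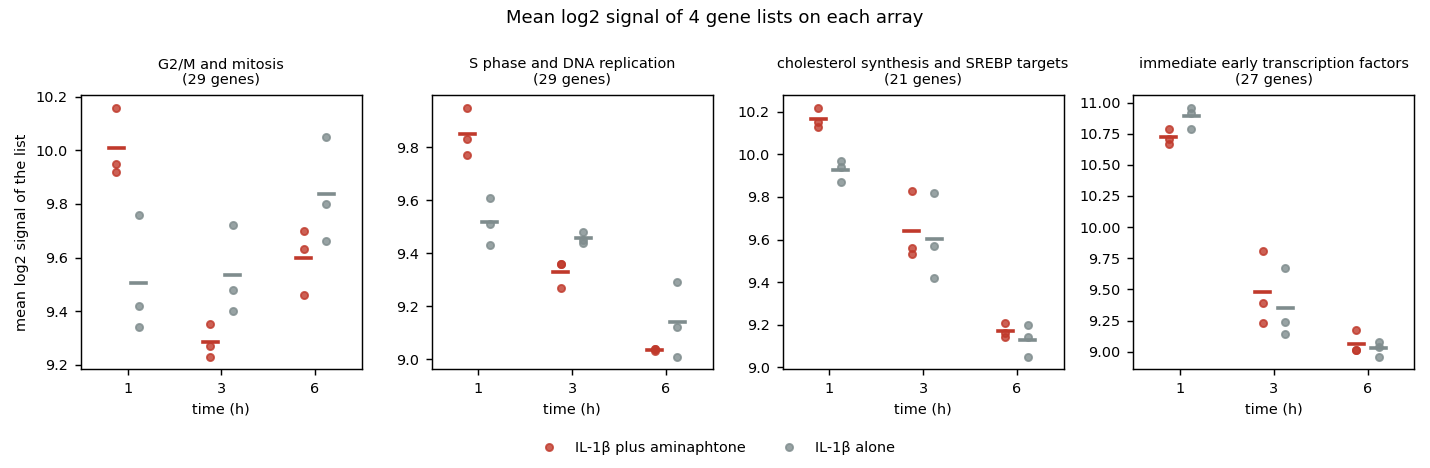
The mean log2 signal of 4 gene lists is plotted on each array against time in h, with IL-1β plus aminaphtone and IL-1β alone in different colours, 1 point per array and a bar at each group mean. With aminaphtone all 3 arrays at 3 h lie under the 3 at 1 h in each of the 4 lists, while with IL-1β alone the 3 h and 1 h arrays overlap for G2/M and for S phase.

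Of 21 tested genes in a list of cholesterol synthesis and SREBP targets 7 fell (33.3%), 14 did not pass and none rose, with a median difference of -0.43. MVK, mevalonate kinase, read 7.60, 7.97 and 7.50 at 3 h, against 8.93, 8.92 and 8.94 at 1 h (2.37-fold lower, log2 -1.24, SE 0.224, adjusted p = 0.00167). SQLE, squalene epoxidase, fell by 0.67 (adjusted p = 0.00366). MYLIP, the ubiquitin ligase that degrades the LDL receptor, read 7.98, 8.37 and 7.97 at 3 h, against 8.79, 8.91 and 9.06 at 1 h (log2 -0.82, SE 0.144, adjusted p = 0.00137). Unlike MVK and SQLE, MYLIP is induced by LXR and not by SREBP, so the 7 are not all genes of the SREBP pathway. The count of 7 was 3 without the first array at 3 h, 4 without the first at 1 h and 12 without the 3 arrays at 1 h with IL-1β alone.

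Of 27 genes of the unfolded protein and integrated stress response 3 fell (11.1%) and 1 rose (3.7%), beside 5.74% and 5.22% of all genes. DDIT3 (CHOP), a stress-induced transcription factor, read 8.13, 7.97 and 8.10 at 3 h, against 9.83, 9.40 and 9.61 at 1 h (2.92-fold lower, log2 -1.55, SE 0.147, adjusted p = 3.87e-06). XBP1, the factor spliced by IRE1, rose by 0.87 (adjusted p = 0.000154). The 3 falls became 2 without any 1 of the 6 arrays compared. They became 5 and 6 without the first and the second 1 h array with IL-1β alone. In the heat shock group of 20, 1 gene rose and 1 fell, 5% each and close to the shares of all genes, namely BAG3 by 0.88 and DNAJB4 by 1.62. Of 21 NRF2 and antioxidant genes 4 rose and 1 fell. HMOX1, heme oxygenase 1, read 12.36, 12.26 and 12.07 at 3 h, against 11.23, 11.34 and 11.41 at 1 h (1.88-fold, log2 0.91, SE 0.152, adjusted p = 0.000891). GCLM, a subunit of the glutathione-synthesizing ligase, rose by 1.14 (adjusted p = 0.00246). NQO1, the classical quinone reductase, read 12.11, 12.14 and 12.07 at 3 h, against 12.10, 12.17 and 12.23 at 1 h, and its difference of -0.06 did not pass (SE 0.101, adjusted p = 0.807). The 4 rises became 2 without any one of 5 of the 6 arrays compared, the exception being the second at 3 h. TIPARP, a target of the aryl hydrocarbon receptor, was the 1 of 6 tested in its group that fell, by 1.11 (adjusted p = 0.00104).

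YAP/TEAD targets, which respond to cell tension and serum factors, included 5 of 17 that fell and 1 that rose. CCN2 (CTGF) read 10.00, 10.90 and 9.98 at 3 h, against 11.74, 11.58 and 11.92 at 1 h (2.74-fold lower, log2 -1.46, SE 0.264, adjusted p = 0.00173). CCN1 (CYR61) fell by 0.90, AJUBA by 1.12, AMOTL2 by 0.81 and NUAK2 by 1.58. Of 19 p53 targets 4 fell (21.1%) and 1 rose (5.26%), beside 5.74% and 5.22% of all genes. GADD45B, a stress gene that NF-κB also induces, fell by 1.76 (adjusted p = 1.07e-05) and PLK2 by 0.75 (adjusted p = 0.000366), and the count of 4 became 2 without the first array at 3 h or at 1 h with aminaphtone. In the BCL2 family 4 of 16 rose and 2 fell. BCL2A1, a pro-survival member and NF-κB target, read 6.70, 6.54 and 7.11 at 3 h, against 5.30, 5.55 and 5.79 at 1 h, all 3 under the filter value (log2 1.24, SE 0.185, adjusted p = 0.000329). It passed the filter through the groups where it is higher. The 4 rises of the family became 2 without the first array at 3 h or the second at 1 h. Of 12 regulators of AU-rich mRNA decay 2 fell (16.7%) and none rose. ZFP36 (tristetraprolin), which destabilizes cytokine mRNAs, fell by 1.07 (adjusted p = 0.00412). Hypoxia and glycolysis genes, with 4 of 33 higher and 2 lower (6.06%), were lower about as often as all genes. SLC2A3, a glucose transporter, fell by 1.17 (adjusted p = 9.83e-05), and the 4 rises became 2 without the first array at 1 h with aminaphtone.

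The same interval was sampled with IL-1β alone on other arrays, so the change with aminaphtone can be set against it. Of the 13805 genes, 1512 changed with aminaphtone (11%) and 1837 with IL-1β alone, where 4.98% of genes rose and 8.33% fell. Both courses called 665 in the same direction, 44% of the aminaphtone calls and 36.2% of the IL-1β calls, and none in opposite directions. Of 369 genes called with a change of at least 2-fold with aminaphtone, 346 had the same sign with IL-1β alone. Fewer of them, 242 (65.6%), were also called in that direction with IL-1β alone. The share of all genes with the same sign was not computed, so the 346 have no background and do not measure agreement between the courses. Across all genes, which are not independent, the log2 differences of the courses correlated at 0.49, given here as a description.

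**Figure D5:**
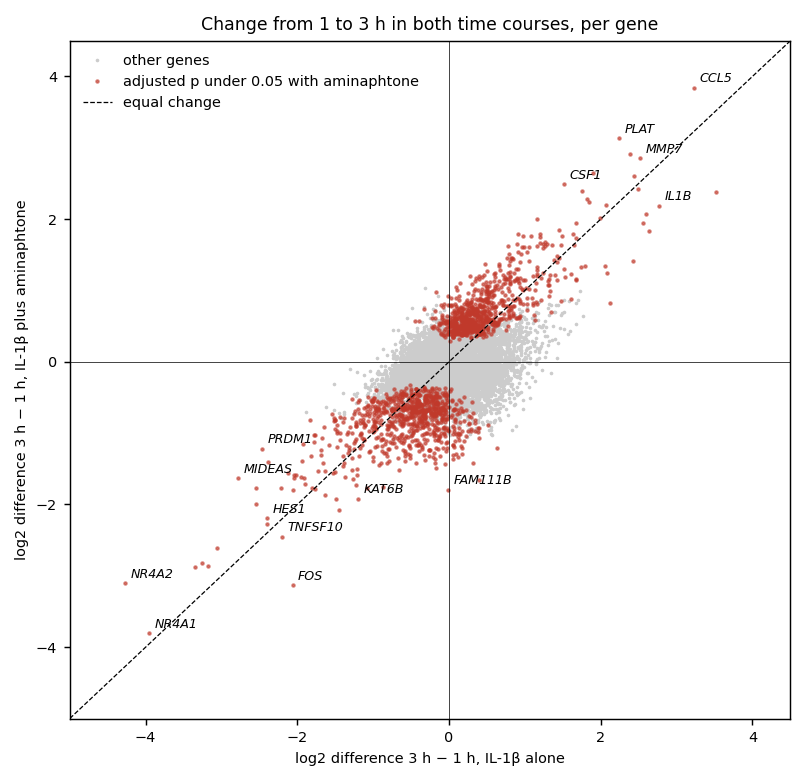
Each point is 1 of 13805 genes, with the log2 difference between 3 h and 1 h with IL-1β plus aminaphtone on the vertical axis and with IL-1β alone on the horizontal axis; red points passed an adjusted p of 0.05 with aminaphtone. PRDM1, MIDEAS and NR4A2 lie above the dashed line of equal change by 1.24, 1.15 and 1.17, and NAV3 and FOS lie below it by similar distances.

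The test of the difference between the courses called 2 of 15796 transcript clusters (0.0127%). Both fell less with aminaphtone. PRDM1 (BLIMP1), a zinc finger repressor, read 6.88, 6.96 and 6.77 at 3 h, against 8.02, 7.93 and 8.31 at 1 h with aminaphtone. With IL-1β alone it read 6.92, 6.95 and 6.92 at 3 h, against 9.53, 9.12 and 9.52 at 1 h. The log2 change was -1.22 with aminaphtone and -2.46 with IL-1β alone (difference of the changes 1.24, adjusted p = 0.0232). MIDEAS, a subunit of a mitotic histone deacetylase complex, read 8.32, 8.35 and 8.06 at 3 h, against 9.87, 9.77 and 9.98 at 1 h with aminaphtone. With IL-1β alone it read 7.98, 8.08 and 7.91 at 3 h, against 10.60, 10.72 and 10.98 at 1 h. The log2 change was -1.63 with aminaphtone and -2.78 with IL-1β alone (difference 1.15, adjusted p = 0.0232). For both genes the courses were close at 3 h, and the arrays at 1 h with aminaphtone lay under all of those with IL-1β alone. Neither call was kept with the replicate number as a block (adjusted p = 0.0571 for both), which called none, nor in the fit to the 12 arrays compared alone, which also called none. The count was 0 without the first or second array of either time with aminaphtone, without the third at 1 h, the first or the third at 3 h or the first or second at 6 h with IL-1β alone, or without the second at 6 h with aminaphtone. It was 3967 without the first 1 h array with IL-1β alone. FOS, with a change of -3.13 with aminaphtone and -2.06 with IL-1β alone, differed by -1.07 without passing (adjusted p = 0.254). For the immediate early group the median change was -0.81 with aminaphtone and -1.19 with IL-1β alone, and for chemokines it was 0.94 with aminaphtone and 0.64 with IL-1β alone.

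Of the gene groups listed, that of G2/M had the median difference between the courses furthest from 0, at -0.72. For G2/M the median change was -0.68 with aminaphtone and 0.10 with IL-1β alone, with 13 and 2 members lower, and no member passed the test of the difference. On the arrays with IL-1β alone the mean signal of the 29 genes was 9.72, 9.40 and 9.48 at 3 h, against 9.76, 9.34 and 9.42 at 1 h, and the groups overlapped. For S phase the median change was -0.49 with aminaphtone and -0.10 with IL-1β alone, and no member passed the test of the difference either. The 1 h arrays with aminaphtone, at 9.92 to 10.16 for G2/M, lay above the 1 h arrays with IL-1β alone, at 9.34 to 9.76. At 3 h the order was reversed, with aminaphtone at 9.23 to 9.35 under IL-1β alone at 9.40 to 9.72.

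The levels at 6 h with aminaphtone are given as a description, with no test. NR4A1 averaged 12.10, 8.30 and 7.88 at 1, 3 and 6 h, and FOS 10.87, 7.74 and 7.77. EGR3 averaged 11.12, 8.26 and 7.0, so it stood lower at 6 h than at 3 h. CCL5 averaged 7.37, 11.21 and 11.89, MMP7 6.62, 9.48 and 10.23, and MMP1 5.54, 6.87 and 8.40. PLAT, at 7.68, 10.82 and 10.35, and NFKB1, at 10.05, 11.07 and 10.47, were higher at 3 h than at 6 h. The 29 G2/M genes averaged 10.01, 9.28 and 9.60, lowest at 3 h, whereas the S phase genes, at 9.85, 9.33 and 9.04, were lowest at 6 h.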

How the data were processed

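The authors deposited 1 table of log2 signals per transcript cluster for the 18 arrays; they were made with RMA in Affymetrix Expression Console, per the submitters' processing notes. RMA corrects background, normalizes quantiles and summarizes probes, which compresses differences at low signal. The software version, the genome build of the array annotation and which arrays were normalized together are not given in the sources used here. The table held 28869 transcript clusters, 21062 of them annotated and 19310 with 1 gene symbol; 19279 of these matched RefSeq by gene ID. No read depth applies to arrays, and their number limits precision.

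Groups were taken from the labelled treatment and time. Annotated transcript clusters were kept where their mean log2 exceeded the 25th percentile (6.193), which left 15796 for testing. The group means of all 18 arrays were estimated together with limma 3.58.1 under R 4.3.3, and contrasts were two-sided, with Benjamini-Hochberg adjustment and a threshold of 0.05. The same fit tested the difference between the courses with aminaphtone and with IL-1β alone. The calculation was tested on simulated data. Deviations from group means of equally numbered arrays at 3 h and 1 h correlated at 0.313, 0.359 and 0.258 with IL-1β alone. Unequal numbers there gave -0.333 to 0.051. With aminaphtone equal numbers gave -0.463, 0.252 and -0.359, while the third array at 3 h and the first at 1 h gave 0.682. Deviations within a group of 3 are tied to each other, and unequal numbers can correlate too. These values therefore do not establish a pairing, and the labels give none.

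Named genes were the 15 largest rises and falls whose groups did not overlap, the 6 members with the smallest p in each list (2 where none passed), the 10 smallest p-values of the difference, and 17 genes of inflammation and vascular function. Where a gene had several transcript clusters the brightest stood for it. The comparison, lists and rules were chosen with earlier results of these data known. Lists are described by counts and medians without a test. The alternatives were other filters, scalings and variance models, array weights, the replicate number as a block, only the 6 arrays compared, and each array left out. Leaving out all 3 arrays at 1 h with IL-1β alone was added after seeing the data.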

Additional observations from a re-analysis of the deposited data

Results flagged for a closer look

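PRDM1 and MIDEAS are listed because their change between 3 h and 1 h differed between the courses in limma's test of that difference. The change of PRDM1 with aminaphtone minus that with IL-1β alone was 1.24 on the log2 scale (SE 0.173, adjusted p = 0.0232). It lay between 1.16 and 1.38 over 28 alternatives and passed in 15 of them, with a highest adjusted p of 0.396. For MIDEAS the difference was 1.15 (SE 0.167, adjusted p = 0.0232). It lay between 1.04 and 1.45, passed in 14 of 28 and had the same highest adjusted p of 0.396. The 1 h arrays with IL-1β alone enter both differences and had a median within-group SD of 0.281 on the log2 scale, beside 0.12 in the 1 h arrays with aminaphtone. The part of that spread in the results was not tested. Groups of 3 arrays were not examined for single outlying arrays.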

How the results depend on the processing

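The count of 1665 was 5504 with array weights, 2666 with only the 6 arrays compared and 3206 without the 3 arrays at 1 h with IL-1β alone, and 790 to 2641 when single arrays were left out. The estimate of the array weights did not converge and gave 1 array a weight of 51.9. The count for the difference between the courses was 1 with a trended robust variance, 8229 with array weights, 0 with the replicate number as a block, 0 with only the arrays compared, 0 with both, and 0 to 3967 without single arrays. The cause was not tested. The number as a block gave 1713 calls, and 2024 with only the 6 arrays. The correlations of deviations do not establish that equally numbered arrays belong together in either course, so whether the block fits the design is not known. Of 157 named genes called, 115 kept the call under every alternative and 42 lost it without at least 1 array compared, 14 of them also under an alternative that left out no array. Of 58 list counts 41 moved by over 1.5 times under at least 1 alternative. The uncalled difference of MEF2D (-0.11) was 0.01 with array weights and -0.24 to 0.00 without single arrays. The 3 arrays per group and signals near the filter value limit what small changes can show.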

Other observations

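Gene families taken by symbol or RefSeq biotype, with patterns chosen after the data were seen, add a few values to the lists, beside 5.22% of all genes higher and 5.74% lower. Of 13 tested SERPIN genes 5 rose at 3 h against 1 h with aminaphtone (38.5%) and none fell, with a median difference of 0.16. Of 36 kinesin (KIF) genes, motors of which several act on the mitotic spindle, 7 fell (19.4%) and none rose, with a median of -0.16. Of 116 small nucleolar RNA genes, which guide the modification of ribosomal RNA, 8 rose (6.9%), near the share of all genes, and none fell, with a median of 0.23. Histone genes, with 2 of 59 lower (3.39%) and none higher, fell no more often than all genes. None of 87 genes of ribosomal proteins passed in either direction, with a median of 0.04.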
